A study of Mus musculus with 28 samples.

Results

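The nuclear respiratory chain genes described here encode the subunits of complexes I to V of the inner mitochondrial membrane and a set of proteins that help assemble them. They were taken as the rows of the deposited expression table whose gene symbol starts with Nduf, Uqcr, Sdh, Cox4i, Cox5, Cox6, Cox7, Cox8 or Atp5, which gave 83 of the 14219 genes listed. By role, 32 encode subunits of complex I, 4 of complex II, 8 of complex III, 10 of complex IV and 14 of complex V, 14 encode assembly or related factors, and Cox7a2l encodes a factor of supercomplexes. All 83 passed the filter on low values (at least 1 CPM, read counts scaled to library size, in at least 6 libraries). A further 10 rows are subunit genes or related loci by their Ensembl identifier but stand in the table under other symbols, among them Cox5b, Cox7c and Atp5o, and are given only as a comparison.

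The respiratory chain passes electrons from NADH (through complex I) and succinate (through complex II) to ubiquinone, then through complex III and cytochrome c to complex IV, which reduces oxygen. The proton gradient built on the way drives ATP synthase, complex V. In β cells, ATP made from glucose by this route closes ATP-sensitive potassium channels and so couples glucose to insulin secretion.

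The study sequenced mRNA of pancreatic islets from male mice aged 10 to 12 weeks on a C57Bl6 and 129sv background, to ask which genes differ between βKlf6KO and control islets under saline or S961. All mice carried floxed Klf6 on both alleles. Mice labelled βKlf6KO also carried Cre at 1 Ins1 allele, which directs recombination to β cells and leaves the other islet cells floxed but intact, while mice labelled control had no Cre. Both genotypes were given either saline or the insulin receptor antagonist peptide S961, and the libraries were 6 labelled βKlf6KO saline, 6 labelled control saline, 8 labelled βKlf6KO S961 and 8 labelled control S961. Each library came from 120 to 150 islets of 1 mouse after overnight culture, so the p-values below measure the spread between mice.

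No difference in Klf6 was called between the genotype labels (limma, adjusted p = 0.974 after saline and 0.517 after S961). It stood at 6.97 ± 0.26 log2 CPM in libraries labelled βKlf6KO saline and 7.0 ± 0.42 in those labelled control saline (SD, n = 6 each), and at 7.22 ± 0.51 in libraries labelled βKlf6KO S961 and 6.94 ± 0.72 in those labelled control S961 (SD, n = 8 each). The values count reads over the whole gene, in whole islets, and the labels do not name the deleted exons, so this check does not show whether the deletion took place. The groups are therefore called by their labels. The libraries held 28868638 to 45001633 reads over the genes of the table. The insulin genes Ins1 and Ins2, the defining markers of β cells, were at 12.05 and 12.31 log2 CPM or more in every library. Markers of some other cells moved with the genotype label, where 2.78% of all genes tested were called after saline and 4.36% after S961. In libraries labelled βKlf6KO, 19 of 24 proliferation markers rose after saline and 8 after S961. Of 15 macrophage markers 5 rose after saline and 0 after S961, of 6 lymphocyte markers 2 and 0, and of 10 fibroblast markers 2 and 5, while of 14 β-cell markers 3 and 5 fell. After S961 1 of 11 acinar and 1 of 7 ductal genes also rose, with all members of both lists above 0 (medians 1.09 and 1.03), and 1 of 7 α-cell genes fell (Slc7a2, by 0.58). Of 5 δ-cell and PP-cell genes and 8 endothelial genes 0 were called after either treatment. Macrophage genes summed to 203 to 932 CPM in libraries labelled βKlf6KO saline and 128 to 210 in those labelled control saline, and to 182 to 588 in those labelled βKlf6KO S961 and 133 to 280 in those labelled control S961. No marker measured from these lists was at 0 reads in every library. Of the 10 lymphocyte genes looked for, 8 had values, 4 of these were at 0 reads in some library, and 6 passed the filter. The part of the markers in the results was not tested except where a fit with them is given. A total of 3 control libraries (S961 replicates 2 and 8 and saline replicate 4) stood apart on the first principal component, with scores of 139.6, 79.8 and 98.4 against at most 48.1 elsewhere, and the main results for called members are given with and without them.

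A pair of members, Ndufa1 and Uqcrh, changed with the genotype label, and sequences of both are shown before their values. Ndufa1 (ENSMUSG00000016427, GRCm38 chromosome X, 37187588 to 37191163, minus strand) encodes a small accessory subunit of the membrane arm of complex I that is needed for the complex to assemble. Its coding sequence is shown whole, because it is the member called after both treatments, from GENCODE M21 on GRCm38.
Ndufa1 coding sequence: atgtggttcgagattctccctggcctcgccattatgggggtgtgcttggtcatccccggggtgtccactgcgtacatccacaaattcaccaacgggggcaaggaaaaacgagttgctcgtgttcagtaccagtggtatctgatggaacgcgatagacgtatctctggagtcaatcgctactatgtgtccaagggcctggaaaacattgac
Uqcrh (ENSMUSG00000063882, chromosome 4, 116066965 to 116075071, minus strand) encodes the hinge protein of complex III, which helps cytochrome c dock. The stretch before its start, chr4:116075071-116075260 on the minus strand (RefSeq, GRCm38.p6), is shown because it holds the core letters of an ETS-type site close to the start (in capitals, CTTCCGG, the reverse complement of the searched CCGGAAG).
Uqcrh upstream: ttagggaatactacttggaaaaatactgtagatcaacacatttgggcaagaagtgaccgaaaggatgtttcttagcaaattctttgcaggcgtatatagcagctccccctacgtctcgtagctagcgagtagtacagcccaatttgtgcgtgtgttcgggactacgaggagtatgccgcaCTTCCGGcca
The capitals mark a match of letters and not a tested binding site.

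Members differed widely in level. Per kilobase of transcript, the 5 with the highest median over 28 libraries were Atp5b at 385.0 CPM per kb, Uqcrh at 295.0, Atp5a1 at 270.0, Atp5c1 at 232.0 and Ndufa4 at 219.0. Atp5a1, Atp5b and Atp5c1 encode the α, β and γ subunits of the catalytic head of ATP synthase, and Ndufa4, first described with complex I, encodes a subunit of complex IV. The 5 lowest were Atp5sl at 3.85 CPM per kb, Ndufb2 at 3.83, Atp5l at 3.79, Sdhaf3 at 2.38 and Ndufaf8 at 2.24. Of these, Sdhaf3 and Ndufaf8 encode assembly factors of complexes II and I. The ranks of Ndufb2 and Sdhaf3 rest on the transcript chosen, of 4371 and 4323 bases against a median of 1005 over members. Before division by length these 2 genes averaged 4.06 and 3.45 log2 CPM. The level of Atp5l is uncertain, since 53.8% of the 125-base windows of its transcript also occur in other genes, as do 85.8% of those of Atp5g2 and 21.9% of those of Atp5h. The other 80 members were at or under 20% and 69 of the 83 were at 0. By complex, the median member stood at 140.0 CPM per kb in complex V, 96.7 in complex IV, 72.2 in complex II, 63.8 in complex III, 44.5 in complex I and 9.14 among assembly factors.

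**Figure D1:**
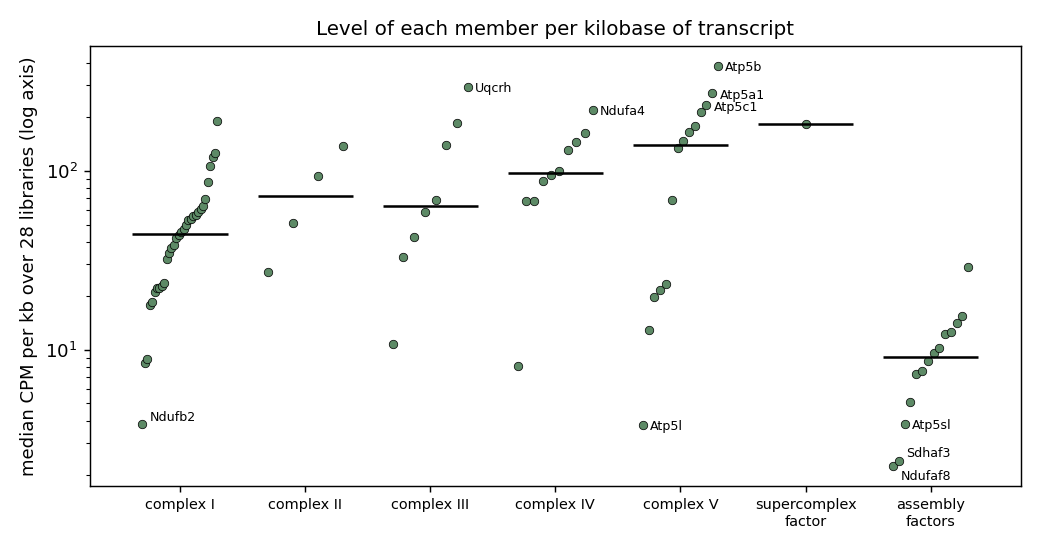
Median level over 28 libraries of each of the 83 members in CPM per kilobase of transcript (log axis), by complex, with the median of each complex as a bar. The assembly factors have the lowest median, 9.14 CPM per kb, and complex V the highest median of the complexes, 140.0 CPM per kb.

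After saline, 2 of 83 members changed with the genotype label and both rose in libraries labelled βKlf6KO. Over all 13591 genes tested, 2.78% were called (378 genes, limma, Benjamini-Hochberg adjusted p below 0.05), so the members' share was no higher than that of all genes. Across members the median log2 difference was 0.08, with 60 of 83 above 0, against a median of -0.00 over all genes tested. The median of members was 0.04 without the 3 libraries that stood apart, where that of all genes tested was -0.03. It was 0.13 with quantile normalization, 0.12 with no scaling factor and 0.11 with GC correction (-0.03, 0.04 and 0.00 over all genes tested). Its sign turned to -0.02 with a correction for transcript GC and length and to -0.07 with the macrophage and lymphocyte marker means as covariates (-0.00 and -0.01 over all genes tested). In whole-islet RNA, fewer cells of a type and less RNA per cell cannot be told apart.

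Ndufa1 was the member with the largest increase. In libraries labelled βKlf6KO saline it ran from 6.50 to 6.90 log2 CPM with a median of 6.54, and in libraries labelled control saline from 5.31 to 5.77 with a median of 5.71. The groups did not overlap. The log2 difference was 0.97 ± 0.17 (SE), a 1.96-fold higher level in βKlf6KO-labelled islets (limma, adjusted p = 0.00131). Without the 3 control libraries that stood apart it was 0.90 ± 0.14 (adjusted p = 5.52e-04), and within each of 4 sequencing lanes it was 0.79, 0.95, 0.97 and 0.99. Rnf113a1, which starts beside Ndufa1 on the opposite strand, averaged 1.79 log2 CPM in βKlf6KO-labelled and 1.67 in control-labelled saline libraries, a difference of 0.12 ± 0.18 (limma, adjusted p = 0.854).

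Uqcrh was the other called member. It ran from 7.32 to 7.63 log2 CPM with a median of 7.53 in libraries labelled βKlf6KO saline, and from 6.90 to 7.40 with a median of 7.15 in libraries labelled control saline. The groups overlapped only through control replicate 4, at 7.40, and βKlf6KO replicate 2, at 7.32. The log2 difference was 0.38 ± 0.10 (limma, adjusted p = 0.0372). It was 0.43 ± 0.10 without the 3 libraries that stood apart (adjusted p = 0.0086). The call was lost on leaving out any 1 of 10 of the 12 saline libraries (all but βKlf6KO replicate 2 and control replicate 4), with differences of 0.33 to 0.39 and adjusted p up to 0.107. With the macrophage and lymphocyte marker means as covariates it was 0.35 (adjusted p = 0.136), with median centring 0.36 (adjusted p = 0.195) and with a correction for transcript GC and length 0.20 (adjusted p = 0.291).

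The members with the next smallest p in saline were spread over complexes I, II and IV and the supercomplex factor, and did not pass the threshold. Ndufb11, an accessory subunit of complex I, averaged 6.71 ± 0.07 log2 CPM in βKlf6KO-labelled and 6.43 ± 0.15 in control-labelled libraries (SD, n = 6 each), without overlap (6.64 to 6.79 against 6.15 to 6.60, limma adjusted p = 0.224). Cox7a2l, the supercomplex factor, averaged 7.67 ± 0.09 and 7.26 ± 0.36 in the same order (adjusted p = 0.272). Within complex II, Sdhd, a membrane anchor, differed by 0.17 ± 0.08 and Sdha, the flavoprotein that oxidises succinate, by -0.15 ± 0.07 (adjusted p = 0.275 and 0.297). Correcting log2 values for transcript GC content brought Ndufb11 past the threshold, at 0.25 ± 0.06 (adjusted p = 0.0123), but the difference was 0.12 with a correction for GC and length (adjusted p = 0.321) and 0.13 with the marker covariates (adjusted p = 0.628).

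After S961, only Ndufa1 of 83 members was called, against 4.36% of all genes tested (593 of 13591). The median log2 difference of members was 0.03, and -0.04 without the 3 libraries that stood apart, against 0.02 and -0.01 over all genes tested. Ndufa1 ran from 6.13 to 6.74 log2 CPM with a median of 6.52 in libraries labelled βKlf6KO S961, and from 5.20 to 6.67 with a median of 5.76 in libraries labelled control S961. The groups overlapped through control replicates 4 and 6, at 6.31 and 6.67, while the other 6 controls stood at 5.80 or lower. The log2 difference was 0.68 ± 0.15 (limma, adjusted p = 0.0166), and 0.49 ± 0.13 without the 3 libraries that stood apart (adjusted p = 0.0258). Within the 4 lanes it was 0.22, 1.06, 0.35 and 1.08, and control replicates 4 and 6 were in the lanes of 0.22 and 0.35. A fit of only the S961 groups gave the same difference with an adjusted p of 0.0984, and called 35 of all genes tested against 593.

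Mki67, the gene of the proliferation marker Ki-67, was high in the same control libraries. Mki67 stood at 4.18 and 4.35 log2 CPM in control S961 replicates 4 and 6 and at 0.35 to 1.95 in the other 6 control S961 libraries. It ran from 2.79 to 3.81 in libraries labelled βKlf6KO S961, from 4.03 to 4.83 in those labelled βKlf6KO saline and from -0.19 to 2.58 in those labelled control saline. The 24 proliferation genes summed to 239 to 323 CPM in libraries labelled βKlf6KO saline and 112 to 159 in those labelled control saline, and to 153 to 223 in those labelled βKlf6KO S961 and 110 to 235 in those labelled control S961. The part of proliferation in the Ndufa1 difference was not tested. With the macrophage and lymphocyte marker means as covariates the Ndufa1 difference was 0.85 ± 0.19 after saline (limma, adjusted p = 0.0423) and 0.51 after S961 (adjusted p = 0.0625).

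The members with the next smallest p after S961 were Sdha, Uqcrh, Cox7a2l and Ndufa6. Sdha ran from 7.83 to 8.13 log2 CPM with a median of 7.99 in libraries labelled βKlf6KO S961, and from 8.01 to 8.30 with a median of 8.21 in those labelled control S961. The groups overlapped mainly through βKlf6KO replicate 1, at 8.13, and control replicate 8, at 8.01. The log2 difference was -0.19 ± 0.06 (limma, adjusted p = 0.0576), and -0.21 ± 0.05 without the 3 libraries that stood apart, where it was called (adjusted p = 0.0268), but -0.03 after quantile normalization (adjusted p = 0.87). Uqcrh differed by 0.24 ± 0.09 (adjusted p = 0.105), and was called without the 3 libraries that stood apart (0.29 ± 0.09, adjusted p = 0.0418) and with the marker covariates (0.31 ± 0.08, adjusted p = 0.0374). It was 0.18 with median centring (adjusted p = 0.363) and 0.08 with the correction for GC and length (adjusted p = 0.543). Cox7a2l differed by 0.36 ± 0.16 (adjusted p = 0.177). Ndufa6, a complex I subunit of the arm that reduces ubiquinone, differed by 0.15 ± 0.07 (adjusted p = 0.182).

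**Figure D2:**
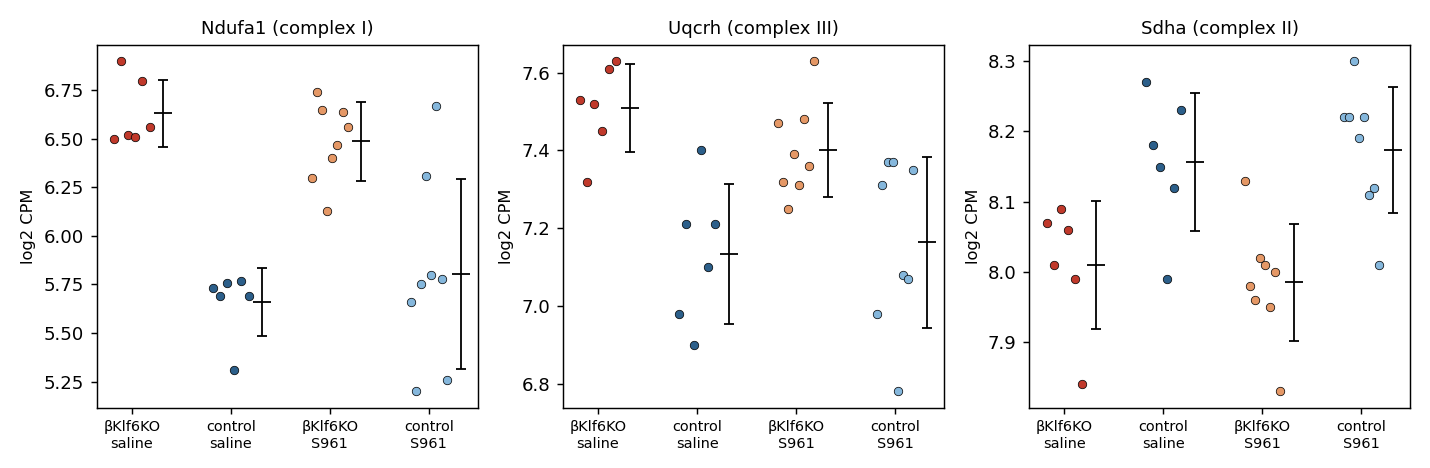
log2 CPM of Ndufa1, Uqcrh and Sdha in each library of the 4 labelled groups, with the mean and SD of each group beside its points. Ndufa1 does not overlap between the saline groups (6.50 to 6.90 against 5.31 to 5.77), and 2 control S961 libraries, at 6.31 and 6.67, lie among the βKlf6KO-labelled ones.

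By complex, the genotype differences were small and few. In complex I, 24 of 32 members were above 0 after saline with a median of 0.07, and 18 of 32 after S961 with a median of 0.06, with Ndufa1 called in both. In complex III, 6 of 8 were above 0 after saline and 5 of 8 after S961, with medians of 0.16 and 0.20. Complex V had 10 of 14 and 7 of 14 above 0, complex IV 7 of 10 and 4 of 10, complex II 3 of 4 and 2 of 4, and the assembly factors 9 of 14 and 7 of 14, none of them called. The highest uncalled differences were those of Atp5g2 after saline, 0.63 ± 0.69, and Ndufs7 after S961, 0.77 ± 0.71. The first was smaller than its SE and the second exceeded its SE only slightly. Atp5g2 encodes subunit c of the ATP synthase ring.

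S961 against saline called no member in either genotype, and no gene of the 13591 tested (0% called, limma, in both). At an unadjusted p under 0.05 stood 2 members in βKlf6KO-labelled islets, against 413 of all genes tested, and 0 members in control-labelled islets, against 104 of all genes tested. Cox7b, a complex IV subunit, averaged 6.57 ± 0.10 log2 CPM in libraries labelled βKlf6KO S961 (SD, n = 8) and 6.73 ± 0.10 in those labelled βKlf6KO saline (n = 6), a difference of -0.16 ± 0.07. Sdhd averaged 7.39 ± 0.11 after S961 and 7.55 ± 0.14 after saline, a difference of -0.16 ± 0.07 (adjusted p = 1 for both). Ndufb9, Atp5h and Ndufb10 followed, each with a difference of -0.14.

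In βKlf6KO-labelled islets 65 of 83 members were lower after S961, with a median of -0.09 against 0.00 over all genes tested. This held for all 8 members of complex III and all 4 of complex II, for 13 of 14 of complex V, 25 of 32 of complex I and 8 of 10 of complex IV, but for 6 of 14 assembly factors. The summed level of the 83 members ran from 5992 to 7346 CPM with a median of 6394 in libraries labelled βKlf6KO S961 and from 6569 to 7192 with a median of 6808 in those labelled βKlf6KO saline, so the groups overlapped. Markers of proliferation and of several cell types lay to one side in the same comparison, none of them called. Below 0 were 24 of 24 proliferation genes (median -0.83), 6 of 6 lymphocyte genes (-1.93) and 14 of 15 macrophage genes (-0.32). So were 13 of 14 β-cell genes (-0.15) and 4 of 5 δ-cell and PP-cell genes (-0.14). Above 0 were 11 of 11 acinar genes (0.38) and 6 of 7 ductal genes (0.41). The α-cell, fibroblast and endothelial lists were more mixed. The part of these markers in the members' shift was not tested. In control-labelled islets 48 of 83 were lower after S961, with a median of -0.04, and the smallest p belonged to Cox6c at -0.11 ± 0.08 (adjusted p = 0.973). The 4 next were Ndufb6 at 0.14 ± 0.13, Cox6b1 at -0.18 ± 0.16, Ndufaf8 at -0.27 ± 0.26 and Cox6a2 at -0.43.

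The S961 response did not differ detectably between genotypes for any member. No gene was called for the difference of responses (0%), and 0 members against 350 of all genes tested were at an unadjusted p under 0.05. The smallest p values among members belonged to Cox7b at -0.17 ± 0.10, Sdhd at -0.15 ± 0.10, Ndufa1 at -0.29 ± 0.23, Ndufa4 at -0.13 ± 0.12 and Ndufb11 at -0.16 (βKlf6KO response minus control response, adjusted p = 1 for each). The means compared for genotype after saline and after S961 come from separate libraries. Their p-values still share an estimate of the spread of each gene, taken from all 28 libraries. The S961 comparisons share their saline and S961 libraries with the genotype comparisons.

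**Figure D3:**
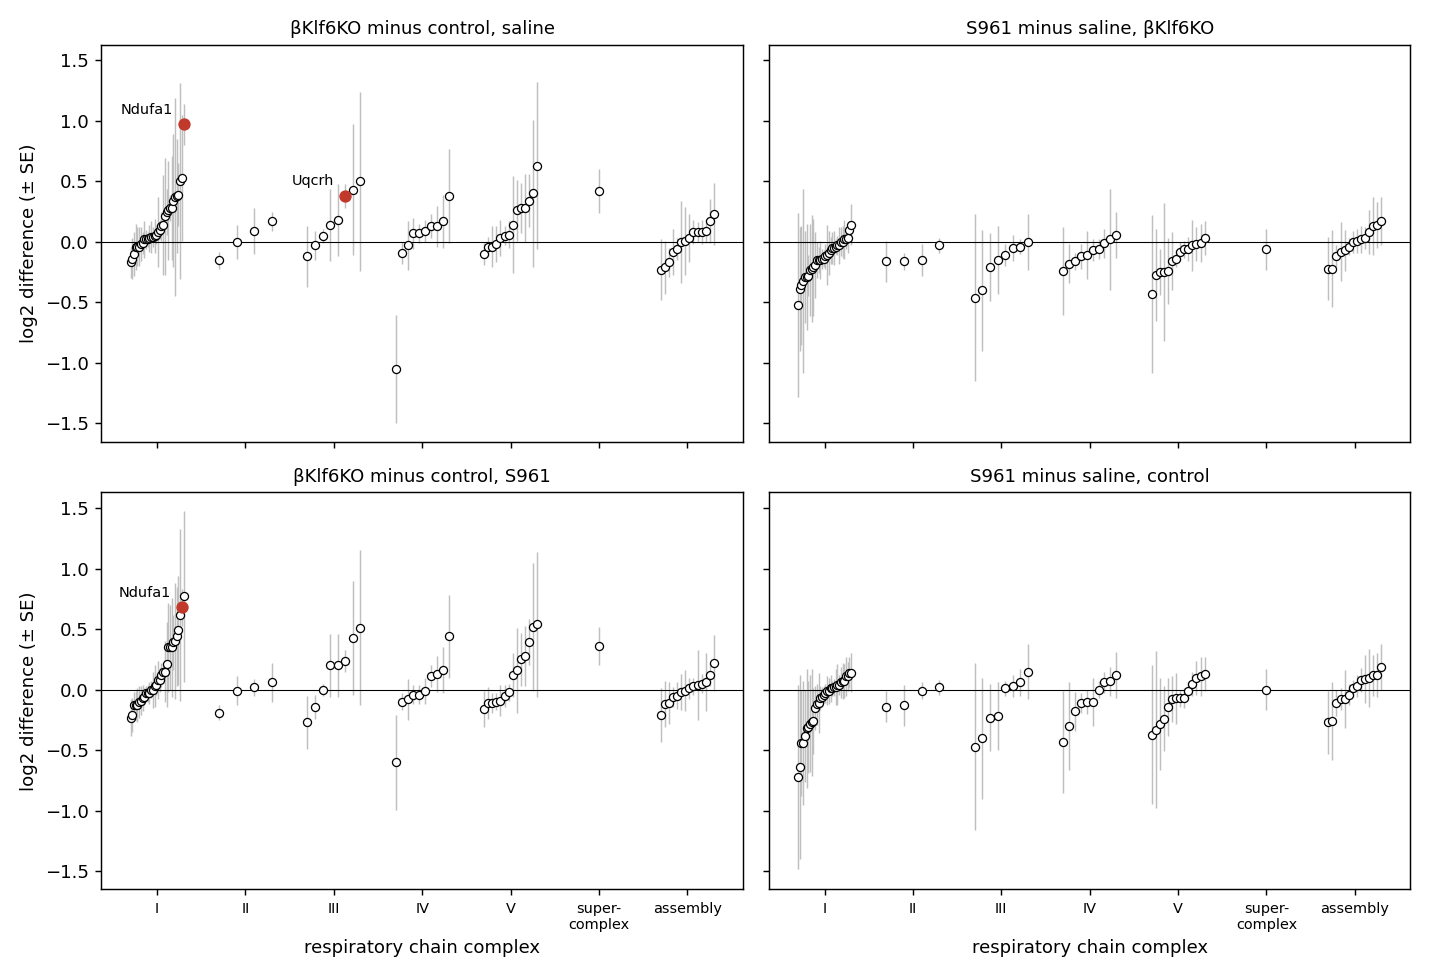
log2 difference (± SE) of each member by complex for βKlf6KO minus control (left, saline above S961) and S961 minus saline (right, βKlf6KO above control). Red points are called and open ones are not. Ndufa1 and Uqcrh are the red points after saline (0.97 and 0.38), Ndufa1 the one after S961 (0.68), and no point is red on the right.

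Subunit 6a of complex IV exists in 2 forms, Cox6a1, found in most tissues, and Cox6a2, best known from heart and skeletal muscle. Both were measured, and their ratio within a library was lower in libraries labelled βKlf6KO. The log2 ratio of Cox6a2 to Cox6a1 reads (not scaled to length) ran from -3.72 to -2.49 in libraries labelled βKlf6KO saline and from -3.09 to -0.82 in those labelled control saline. Saline control replicate 4, at -3.09, lay among the βKlf6KO-labelled libraries, and the other 5 controls stood at -2.09 or higher. The mean was -3.13 ± 0.40 in the βKlf6KO-labelled and -1.91 ± 0.74 in the control-labelled group (SD, n = 6 each), a difference of -1.22 (two-sided exact permutation p = 0.00649, adjusted p = 0.026 over 4 comparisons).

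After S961 the ratio averaged -2.99 ± 0.46 in libraries labelled βKlf6KO and -2.24 ± 0.70 in those labelled control (SD, n = 8 each), a difference of -0.75 (exact permutation p = 0.0219, adjusted p = 0.0438). The groups overlapped widely, and this call was lost on leaving out any 1 of 10 of the 16 S961 libraries (adjusted p up to 0.0926), with differences of -0.78 to -0.59. With the GC correction neither genotype comparison held (-1.08, exact permutation adjusted p = 0.268, and -0.52, adjusted p = 0.488), and without the 3 libraries that stood apart the differences were -1.45 (exact permutation adjusted p = 0.00866) and -0.73 (adjusted p = 0.111). The difference in the ratio between S961 and saline was 0.13 in βKlf6KO-labelled and -0.33 in control-labelled islets (exact permutation adjusted p = 0.563 and 0.534). As single genes, Cox6a2 averaged 2.22 ± 0.55 log2 CPM in βKlf6KO-labelled and 3.27 ± 1.05 in control-labelled saline libraries and Cox6a1 5.34 ± 0.22 and 5.17 ± 0.35 in the same order, and neither was called (limma, adjusted p = 0.257 and 0.819). Without the 3 libraries that stood apart Cox6a2 was called after saline, at -1.42 ± 0.41 (limma, adjusted p = 0.0412).

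**Figure D4:**
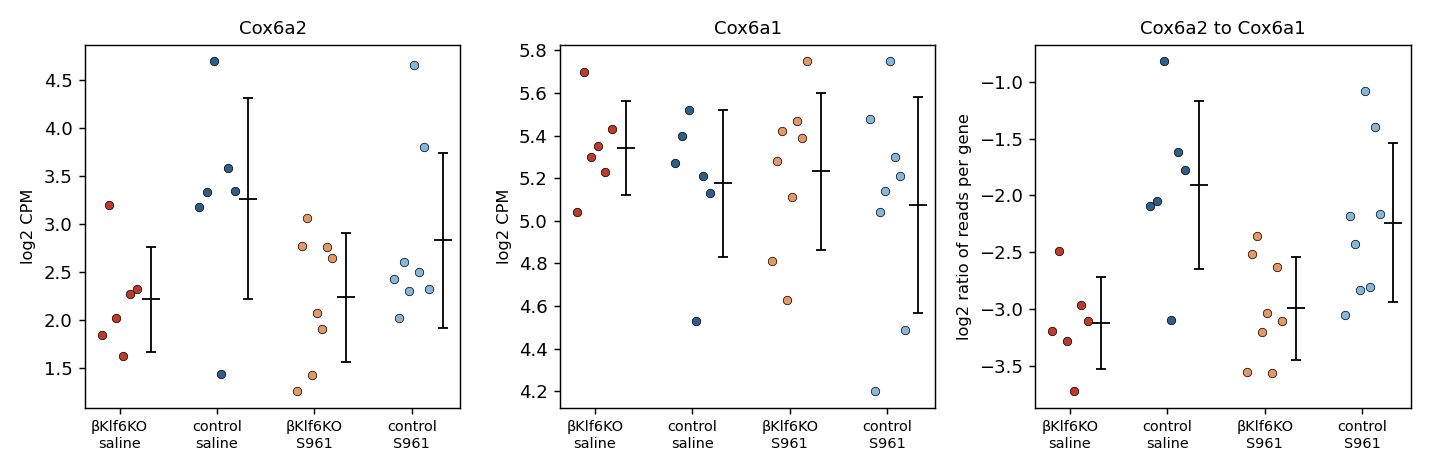
Cox6a2 and Cox6a1 in log2 CPM and the log2 ratio of their reads in each library of the 4 labelled groups, with the mean and SD of each group. The ratio averages -3.13 in libraries labelled βKlf6KO saline and -1.91 in those labelled control saline.

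Beyond genotype and treatment, members split by the GC content of their transcripts. The SD over 28 libraries ran from 0.08 log2 for Uqcrfs1, the Rieske iron-sulfur protein of complex III, to 1.47 for Ndufs7, an iron-sulfur subunit of complex I. It was under 0.2 for 26 members and over 1 for 5, Ndufs7, Ndufb7, Uqcr11, Atp5g2 and Atp5d, with a median of 0.30 against 0.37 over all genes tested. The most even after Uqcrfs1 were Ndufa9 at 0.09, Atp5b and Ndufaf7 at 0.11 and Ndufb9 at 0.12. These were chosen after their values were seen. The median SD was 0.26 in the 27 members of lowest transcript GC (39.5% to 48.0%) and 0.59 in the 27 of highest (53.8% to 60.4%).

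Without the 3 control libraries that stood apart the median SD of members was 0.21. In the mean of these 3, 22 members were lower by more than 1 log2 than in the other 25 libraries and 23 were higher by more than 0.2. Ndufs7 was 3.71 lower and Ndufb7 3.69 lower, while Ndufaf4, an assembly factor of complex I, was 1.22 higher and Uqcrb, a complex III subunit, 1.14 higher on the log2 scale. Ndufs7 stood at -1.98, -0.28 and 0.00 log2 CPM in these 3 libraries, and at 1.06 to 4.41 in the other 25. The middle 90 bases of the coding sequences of these 4 genes (GENCODE M21, GRCm38, chromosomes 10, 8, 4 and 13) are shown for their base composition.
Ndufs7: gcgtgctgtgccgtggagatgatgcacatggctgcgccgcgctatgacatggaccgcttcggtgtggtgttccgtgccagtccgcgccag
Ndufb7: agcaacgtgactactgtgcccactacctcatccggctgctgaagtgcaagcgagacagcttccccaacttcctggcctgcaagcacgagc
Ndufaf4: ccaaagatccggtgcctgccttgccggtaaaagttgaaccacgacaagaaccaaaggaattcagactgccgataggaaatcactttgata
Uqcrb: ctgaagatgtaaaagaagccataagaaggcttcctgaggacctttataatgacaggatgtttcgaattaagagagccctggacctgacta
The Ndufs7 and Ndufb7 stretches hold 65.6% and 58.9% G and C, and the Ndufaf4 and Uqcrb stretches 46.7% and 42.2%. Over whole transcripts the GC content was 59.6%, 59.7%, 39.5% and 42.2% in the same order.

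Across the 83 members the shift in these 3 libraries ran against transcript GC with a Spearman coefficient of -0.73, and across 13584 genes tested with -0.85, given as a description since genes share these libraries. Exceptions by transcript GC were seen: Atp5g1 (46.8% GC), Ndufa1 (47.5%) and Atp5l (47.8%) were lower by 1.81, 0.99 and 0.96 log2, and Atp5j (56.0%) was higher by 0.77. Over the coding sequence alone their GC content was 56.9%, 52.4%, 48.5% and 43.5% in the same order. By that measure Atp5g1 and Atp5j are no exceptions. Uqcrfs1 and Ndufb9 moved by 0.04 and 0.01. These 3 libraries also held the 3 lowest values of Ins2, 12.31, 13.16 and 13.57 log2 CPM, and of Ndufa1, 5.20, 5.31 and 5.26. All 3 are control libraries, so the shift of Ndufa1 also holds its genotype difference. Ndufa1 ran from 6.13 to 6.90 in βKlf6KO-labelled libraries and from 5.66 to 6.67 in the other control libraries. In spite of the split, the summed level of the members in these 3 libraries was 6938, 6424 and 6520 CPM, inside the range of the other libraries, 5992 to 7346 CPM. After correcting log2 values for transcript GC the median SD of members was 0.21. The SD became smaller for 57 of the 83 members and rose for others, such as Atp5j, from 0.29 to 0.72.

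The GC split also touches the direction of the comparisons. Of the 27 members of highest GC content 26 were above 0 for genotype after saline and 22 after S961, with medians of 0.25 and 0.21 and none called, and all 27 were lower after S961 in βKlf6KO-labelled islets, with a median of -0.23. Of the 27 members of lowest GC content 15 and 6 were above 0 for genotype, with medians of 0.02 and -0.05, and 17 were lower after S961 in βKlf6KO-labelled islets, with a median of -0.04. The gap between the median deviations of these 2 sets (highest GC minus lowest GC) ran from -0.41 to 0.72 log2 in libraries labelled βKlf6KO saline, -1.72 to 0.69 in those labelled control saline, -0.91 to 0.62 in those labelled βKlf6KO S961 and -1.93 to 0.95 in those labelled control S961. The part of GC content in these counts was not tested.

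**Figure D5:**
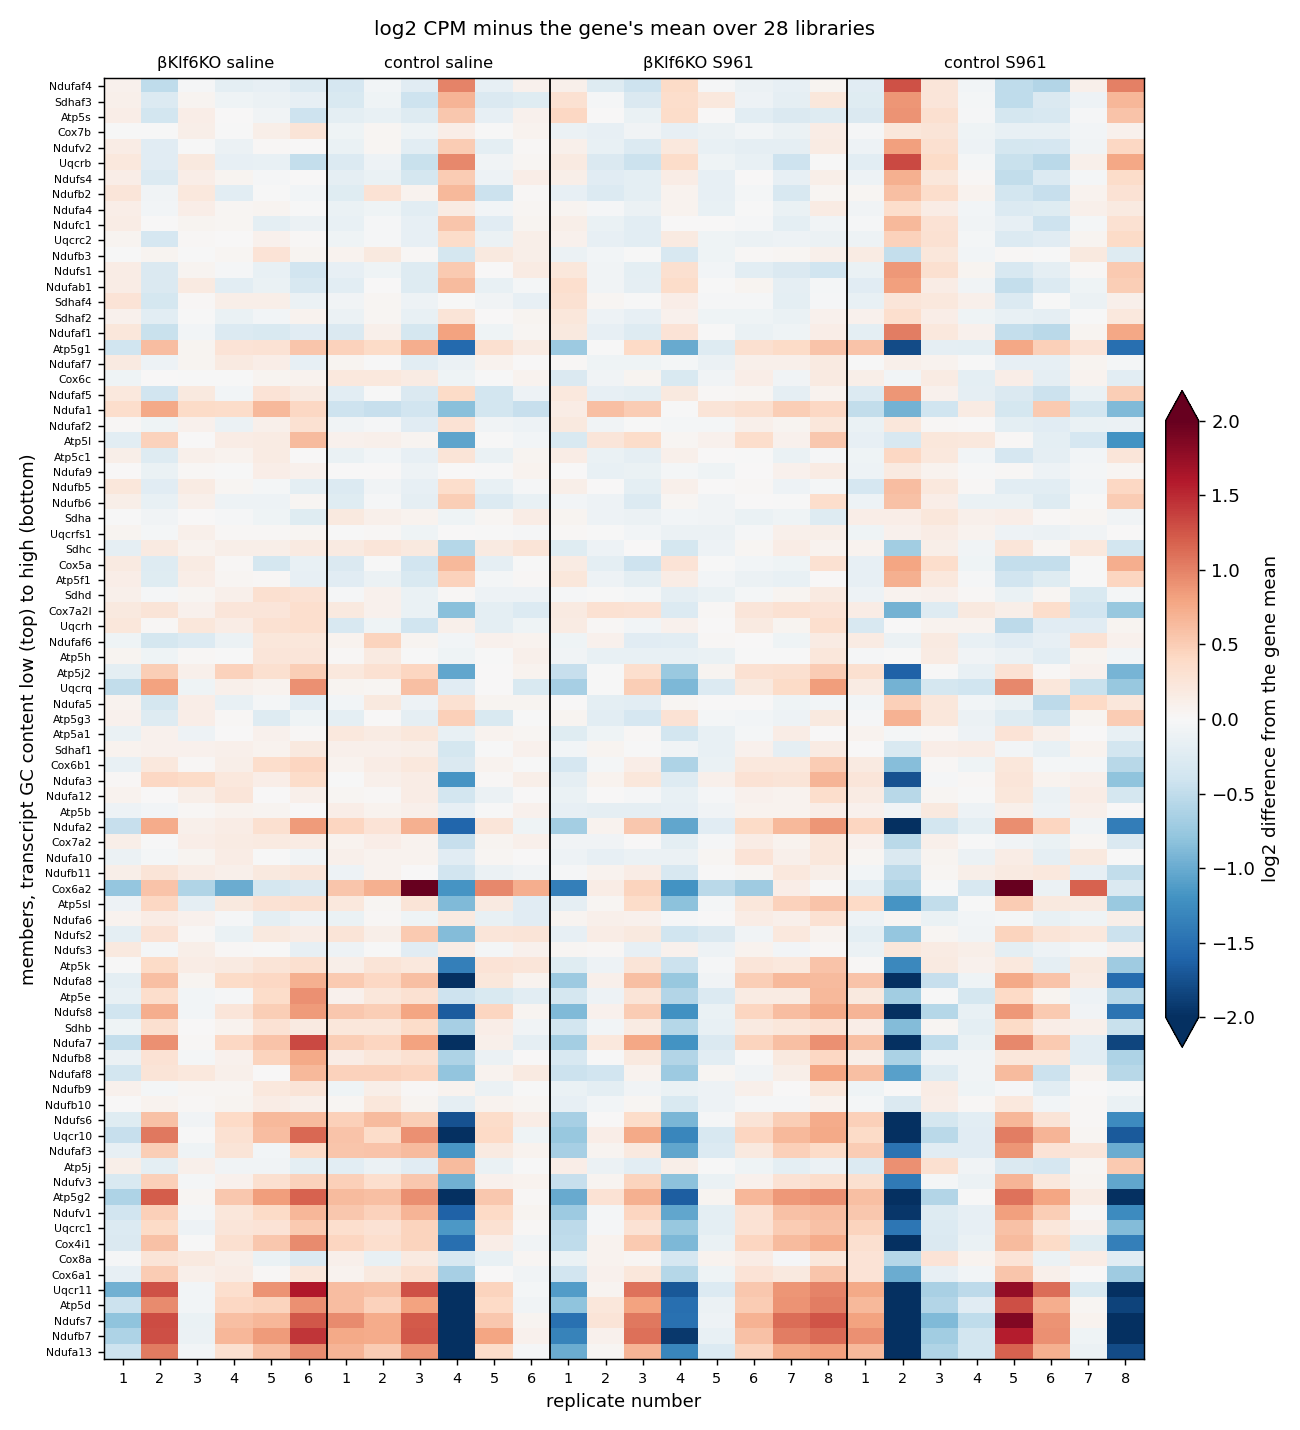
log2 CPM of each of the 83 members minus its mean over 28 libraries (colours stop at 2 either way), members ordered by transcript GC content from low (top) to high (bottom) and libraries by labelled group and replicate number. Control saline replicate 4 and control S961 replicates 2 and 8 are low (blue) for most members of high GC content and high (red) for many of low GC content.

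Few genes around the chain were called, most of them cytosolic ribosomal protein genes. Of 63 other nuclear genes of oxidative phosphorylation 0 were called after either treatment, with medians of 0.05 and 0.05 (1 and 2 at an unadjusted p under 0.05, limma). For comparison, 1953 of all 13591 genes tested and 7 of the 83 members were at an unadjusted p under 0.05 after saline. After S961 these counts were 3107 and 5. Of 9 subunit rows tested under other symbols 0 were called, with medians of 0.19 and 0.09 (1 and 0 at an unadjusted p under 0.05). All 7 mitochondrially encoded genes measured were lower in libraries labelled βKlf6KO, with medians of -0.54 after saline and -0.45 after S961, and 0 were called (1 and 0 at an unadjusted p under 0.05). Their summed level ran from 9450 to 14236 CPM (median 12326) in libraries labelled βKlf6KO saline. In those labelled control saline it ran from 12674 to 36469 CPM (median 15017). After S961 it ran from 7723 to 25718 CPM (median 12680) in βKlf6KO-labelled and from 11554 to 44825 (median 15892) in control-labelled libraries. The groups overlapped after both treatments. For these genes no value is given without the control libraries that stood apart.

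Of 25 genes of the tricarboxylic acid cycle, 1 fell after S961: Fh1, fumarate hydratase, averaged 7.24 log2 CPM in βKlf6KO-labelled and 7.65 in control-labelled libraries, a difference of -0.41 ± 0.08 (limma, adjusted p = 0.00631). The Fh1 call was lost after quantile normalization (-0.27, adjusted p = 0.0639) and in a fit of only the S961 groups (adjusted p = 0.0621). The latter fit called 35 of all genes tested, against 593 in the main fit. None of the 25 was called after saline, and 1 after saline and 5 after S961 were at an unadjusted p under 0.05. Of 25 regulators of mitochondrial biogenesis 0 were called after either treatment (2 and 1 at an unadjusted p under 0.05). Of 76 mitochondrial ribosomal protein genes 0 were called after saline (2 at an unadjusted p under 0.05) and 1 rose after S961, Mrpl9, by 0.17 ± 0.05 (limma, adjusted p = 0.0477). After S961, 8 of the 76 were at an unadjusted p under 0.05. The Mrpl9 call was lost on leaving out any 1 of 22 of the 28 libraries. Of 96 cytosolic ribosomal protein genes 4 rose after saline and 11 after S961, with medians of 0.38 and 0.40 and 88 and 92 above 0. Over all genes tested 2.78% and 4.36% were called. At an unadjusted p under 0.05 stood 27 and 37 of the 96. Rpl5 was called after both, rising by 0.40 ± 0.11 after saline and 0.39 ± 0.10 after S961 (limma, adjusted p = 0.047 and 0.028). Leaving out single libraries ended the Rpl5 call in 19 cases after saline and 5 after S961.

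Some short letter motifs were more frequent in the promoters of members than in all promoters, a feature that the choice by symbol did not use. Of 83 members 70 matched a RefSeq promoter entry (GRCm38.p6), with 76 windows of 250 bases before to 50 after the start. The letters CGCATGCG (the core of an NRF1 site, either strand) stood in 13.2% of these windows and in 1.87% of all 32851 windows. CCGGAAG (ETS factors, such as NRF2) stood in 27.6% against 8.86%, AANATGGC (YY1) in 28.9% against 6.05%, and AAGGTCA (ERR nuclear receptors) in 7.89% against 4.72%. NRF1 and NRF2 are known as activators of respiratory chain genes. A match of letters is a description of the window and not a site in use. Member transcripts were also short, with a median length of 1005 bases against 3004 bases over all genes tested.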

How the data were processed

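RNA of 28 islet samples, 1 mouse each, was read as 125 bp single ends from a stranded mRNA kit. The authors deposited 1 table of log2 CPM for 14219 genes, made with STAR 2.5.3a, HTSeq 0.9.1 and edgeR on GRCm38, per the submitters' processing notes. Neither the annotation nor the strand setting was given in the sources used here, and overlapping genes may share reads. Whole reads were recovered from the log2 values (100% within 0.05), and a count of 0 allows 3 reads, or 0.0685 to 0.1053 CPM, for counting error only.

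A gene was tested where 6 or more libraries reached 1 CPM (13591 tested, 628 removed). Group means over all 28 libraries were fitted with limma 3.58.1 in R 4.3.3 (empirical Bayes with a trend), and Benjamini-Hochberg adjusted p-values over all genes tested were called below 0.05. All tests were two-sided, and every adjusted p of a gene is from limma. The script was tested on simulated data. The Cox6a2 to Cox6a1 ratio had exact permutation tests. Transcript length and GC content came from GENCODE M21 (GRCm38) and promoters from RefSeq (GRCm38.p6). For each gene 1 transcript was used, the annotated principal one, or the longest where several qualified.

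Named were all called members, the 5 members of smallest p where fewer than 3 were called, the 5 highest and 5 lowest per kilobase, the isoform pair, Klf6, Ins1, Ins2, and up to 4 called genes per list. Members, lists and tests were chosen with earlier results of these data known. Alternatives were other filters, scalings and weights, a lane, replicate, GC or marker term, the groups compared alone, leaving out each library, and leaving out the 3 libraries of highest first component score. The last of these and the GC correction were added for the isoform ratio after the data were seen.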

Additional observations from a re-analysis of the deposited data

Results flagged for a closer look

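Single libraries stood far from the rest of their group in 16 of 152 groups of values examined (38 genes or values in 4 groups), by Dixon's test, where chance gives about 1 in 20. Among the genes examined, Ndufs7, Ndufb7, Uqcr11, Atp5g2 and Atp5d were included for their wide spread over libraries and gave 5 of the 16, so the total is not to be read against that chance rate. Of the 16, 11 belonged to control saline replicate 4, one of the 3 libraries that stood apart. There Ndufa1 was at 5.31 log2 CPM (the nearest other library at 5.69), Ndufaf8 at -0.04 (0.82), Atp5l at -0.09 (0.91), Ndufs7 at -0.28 (2.62) and Ndufb7 at 0.09 (3.34). In the same library Uqcr11 was at 0.70 (3.45), Atp5g2 at -0.04 (3.33), Atp5d at 2.15 (4.44) and Ins2 at 13.16 (15.73). Ndufb6, at 5.50 (4.99), and Sdhaf3, at 4.13 (3.37), were instead above the rest of their group. In control S961 replicate 8 Atp5l was at -0.22 (0.64).

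Among libraries labelled βKlf6KO, S961 replicate 4 had Ndufb11 at 6.22 log2 CPM (6.51), S961 replicate 8 had Cox7b at 6.80 (6.60) and Atp5h at 7.16 (6.93), and saline replicate 2 had Atp5c1 at 7.84 (8.11).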

How the results depend on the processing

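The count of members called for genotype after saline, 2 in the values reported, was 1 with a filter at 5 CPM, with median centring and with the macrophage and lymphocyte covariates, 8 with library weights and 13 with the first principal component as a covariate. After S961, 1 in the values reported, it was 0 for only the groups compared, 2 with quantile normalization, library weights, a lane term or GC correction, 3 without the 3 libraries that stood apart, 6 with GC and length correction and 22 with the first component. After saline, 4 of the 8 members called with library weights and 8 of the 13 with the first component rose, and the others fell. After S961, 2 of the 6 with GC and length correction and 5 of the 22 with the first component rose, and the others fell. Several of these fits also called more of all 13591 genes tested, while quantile normalization and library weights after S961 called fewer, 395 and 560. Fits that called fewer members also called fewer of all genes. After saline the filter at 5 CPM called 117 of 10782 genes tested, median centring 314 and the macrophage and lymphocyte covariates 72, against 378. After S961 the fit of only the groups compared called 35, against 593. After saline 3018 genes were called with library weights and 2821 with the first component, against 378. After S961 they were 2739 with GC correction, 2489 with GC and length correction and 3829 with the first component, against 593. Leaving out single libraries gave 1 to 2 calls after saline and 1 to 2 after S961. No member was called for S961 or for the difference of responses in any setting run. Without the 3 libraries, and with the first component, the cause of the added calls was not tested.

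The Cox6a2 to Cox6a1 ratio with GC correction differed by -1.08 and -0.52 between genotypes (exact permutation adjusted p = 0.268 and 0.488), and by -0.73 after S961 without the 3 libraries. Leaving out single libraries gave -0.87 to -0.59 after S961. The S961 difference in βKlf6KO-labelled islets, 0.13, was -0.18 within lane 4. Ndufa6 after S961, 0.15, was -0.11 with GC and length correction. Klf6 after saline, -0.03, was 0.09 with quantile normalization or GC correction, 0.01 with no scaling factor, 0.21 with library weights, 0.13 with GC and length correction, 0.10 with the first component or without the 3 libraries, and -0.16 to 0.10 on leaving out single libraries.

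With the replicate block the counts stayed at 2 and 1, with Ndufa1 at 0.97 and 0.68 (limma, adjusted p = 0.00561 and 0.0246) and Uqcrh at 0.38 (adjusted p = 0.0496). Same-numbered libraries correlated at -0.712 to 0.563, and none correlated best with its own number, so the samples share only a number.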
